A study of Homo sapiens with 4 samples.

Results

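The genes that write, copy and remove DNA methylation were examined in human cells at day 2 of hematopoietic differentiation. The group comprised 8 of the 17894 genes measured, chosen by symbol: the DNA methyltransferases DNMT1, DNMT3A and DNMT3B, their catalytically inactive relative DNMT3L, the DNMT1 recruiter UHRF1, and the dioxygenases TET1, TET2 and TET3. All 8 were listed in every library, and 6 of them had a mean of at least 1 FPKM over the libraries. FPKM is the number of fragments mapped to a gene, scaled for transcript length and for sequencing depth. DNMT3L and TET2, with means of 0.545 and 0.985 FPKM, were below this limit and enter none of the counts of genes past a threshold. TET2 is described by its values and counting intervals, and DNMT3L by its level.

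All libraries came from H1, a human embryonic stem cell line, co-cultured in medium with serum on mAGM-S3 mouse stromal cells and sorted at day 2 for TRA-1-85, an antigen carried by human cells. There were 4 libraries: 1 of wild type cells without added factor (control), 1 of wild type cells given R-spondin2 at 20 ng/mL during the first day of differentiation, and 1 from each of 2 LGR4-/- clones, neither of which was given R-spondin2. R-spondin2 is a secreted protein that amplifies WNT signaling, and LGR4 is one of its receptors. The labels name the clones by number only, so that variation between clones and between cultures is mixed in any difference between them. LGR4 RNA was still found in the clones: clone 1 held 7.40 FPKM and clone 2 held 13.9 FPKM, where the control had 21.8 FPKM and the R-spondin2 library 24.3 FPKM. The deposited values do not show which part of LGR4 was altered, and a transcript that no longer makes protein can still be counted.

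DNA methylation in mammals is placed on cytosines that precede a guanine. DNMT3A and DNMT3B add it to unmethylated DNA, and DNMT3L binds them and stimulates their activity without an active site of its own. DNMT1 copies the pattern to the new strand after replication, and UHRF1 brings it to the half-methylated sites. The TET enzymes oxidize methylcytosine, which leads to its loss by dilution or by base excision repair. Human pluripotent cells are known for high DNMT3B and TET1, both of which decline as the cells leave pluripotency. RNA was measured here, and neither the proteins nor methylation itself.

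The catalytic cysteine of the methyltransferases lies in a short loop behind a proline. The coding sequences of this loop are shown for the active enzymes DNMT1, DNMT3A and DNMT3B. The stretches were located by the proline and cysteine, so that sharing these residues is no result. They were read from the GENCODE release 29 transcripts of GRCh38, 5′ to 3′ on the coding strand, and capitals mark the codons for proline and cysteine. The DNMT1 stretch lies in exon 33 at chr19:10140114-10140140 on the minus strand, the DNMT3A stretch in exon 18 at chr2:25240671-25240697 on the minus strand, and the DNMT3B stretch in exon 18 at chr20:32800868-32800894 on the plus strand.
DNMT1: ggcgggccgCCCTGCcagggcttcagc
DNMT3A: gggggcagtCCCTGCaatgacctctcc
DNMT3B: ggcggaagcCCATGCaacgatctctca
DNMT3A and DNMT3B encode the same 9 residues here, with the cysteine codon in common and most other codons different, while DNMT1 and DNMT3B share 5 of 9. In DNMT3L only 4 of the 9 positions could be aligned with DNMT3A. Over whole proteins of 912 and 853 residues, DNMT3A and DNMT3B were identical at 61.3% of 652 aligned residues. DNMT3L, with 386 residues, was identical to DNMT3B at 43.4% of 295. The paralogs are therefore related but not near-identical copies.

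The levels of the 8 genes ran from the most abundant transcripts to those of a few reads. DNMT3B (NCBI gene 1789; chromosome 20, 32762385 to 32809356) stood at 221 FPKM in the control, 161 FPKM with R-spondin2, 425 FPKM in clone 1 and 358 FPKM in clone 2. It ranked between 134 and 369 among the 17894 genes and was the most abundant member in every library. DNMT1 (NCBI gene 1786; chromosome 19, 10133346 to 10194953) had 54.9, 54.2, 62.5 and 59.4 FPKM in the same order of libraries. Both clones lay above both wild type libraries, by little. Gene positions are those of RefSeq on GRCh38.p14. The values are per gene and do not separate transcripts, of which DNMT3A and DNMT3B list 6 each.
DNMT3A (NCBI gene 1788; chromosome 2, 25227874 to 25342590) had 38.3, 30.5, 46.6 and 43.8 FPKM. UHRF1 (NCBI gene 29128; chromosome 19, 4903080 to 4962154) had 38.3, 37.6, 36.2 and 33.7 FPKM. DNMT3A and UHRF1 were level with each other in the control. UHRF1 was the higher of the pair with R-spondin2, and DNMT3A was the higher in the clones.

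Among the dioxygenases, TET1 (NCBI gene 80312; chromosome 10, 68560337 to 68694487) was the most abundant in every library, with 9.42 FPKM in the control, 7.87 FPKM with R-spondin2, 11.7 FPKM in clone 1 and 10.4 FPKM in clone 2. TET3 (NCBI gene 200424; chromosome 2, 73983631 to 74135498), which is best known from the egg and from neural cells, had 5.29, 5.62, 5.03 and 6.14 FPKM, without a split by genotype. TET2 (NCBI gene 54790; chromosome 4, 105145875 to 105279803), which is known for its part in blood cells, had 1.06 and 1.54 FPKM in the wild type libraries and 0.70 and 0.64 FPKM in the clones, so that the genotypes did not overlap. With no filter on level, the same held in either direction for 53.1% of all genes, so this says little about TET2. DNMT3L (NCBI gene 29947; chromosome 21, 44246339 to 44261897) had between 0.40 and 0.80 FPKM, which corresponds to between 5 and 9 reads, and no difference between libraries could be read at this depth. The order of levels was DNMT3B, DNMT1, then DNMT3A and UHRF1, then TET1, TET3, TET2 and DNMT3L. In the control DNMT3A and UHRF1 could not be ordered. TET2 and DNMT3L were the lowest in all 4 libraries.

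**Figure D1:**
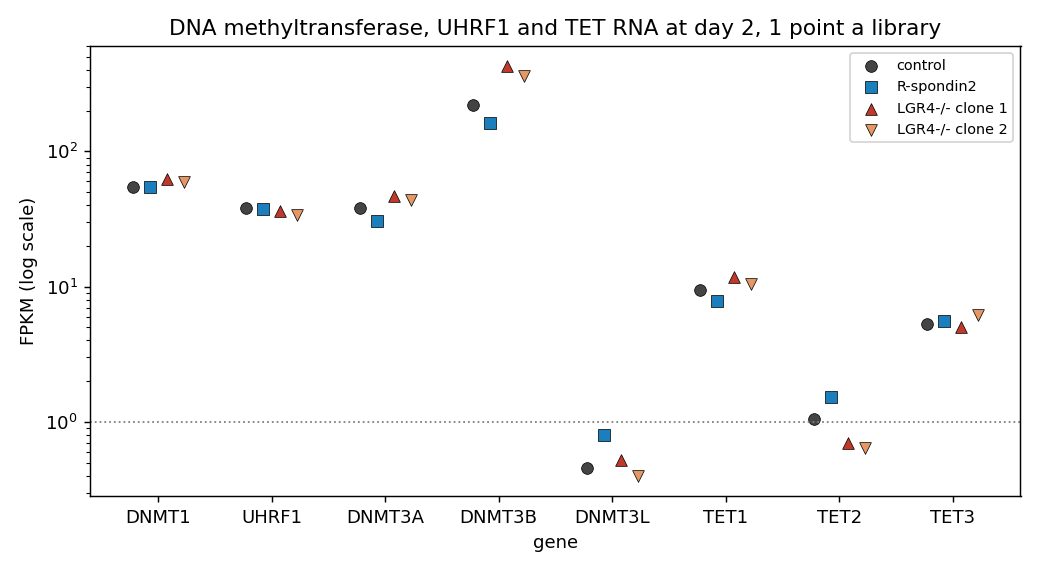
FPKM of each gene on a log axis, 1 point a library, with a dotted line at 1 FPKM. DNMT3B lies highest in every library (161 to 425 FPKM), and DNMT3L and TET2 lie around or under the line.

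The first question was which of these genes differed in the LGR4-/- clones. Every difference was taken on log2(FPKM+1), where low genes appear to differ by less than their FPKM do, and was set beside the 12697 genes whose mean reached 1 FPKM. DNMT3B was higher by 0.94 in clone 1 and by 0.70 in clone 2 than in the single control library, a mean of 0.82 ± 0.17 (SD, n = 2 clones). As a ratio of FPKM this was 1.93 in clone 1 and 1.62 in clone 2. DNMT3B was the 1 of 6 members that was at least 1.5-fold higher in both clones, against 2.61% of all genes tested, and its mean difference exceeded that of 98.6% of them. None of the 6 members was at least 1.5-fold lower in both clones, against 3.09% of all genes.

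The other methyltransferase genes stood above the control by less. DNMT3A was higher by 0.28 and 0.19, a mean of 0.23 ± 0.06 (SD, n = 2 clones). DNMT1 was higher by 0.19 and 0.11, a mean of 0.15 ± 0.05 (SD, n = 2 clones). Both means lay inside the range between the 5th and 95th percentile of all genes, which ran from -0.52 to 0.55. TET1 was higher by 0.28 and 0.13, a mean of 0.21 ± 0.11 (SD, n = 2 clones). UHRF1, which works on the same sites as DNMT1, went the other way, with differences of -0.08 and -0.18 and a mean of -0.13 ± 0.07 (SD, n = 2 clones).
TET3 was at -0.06 in clone 1 and 0.18 in clone 2, so that the clones lay on either side of the control. TET2 was at -0.28 and -0.33, a mean of -0.30 ± 0.04 (SD, n = 2 clones), which on this scale understates its FPKM ratios. Because bulk RNA was measured, fewer cells of a type and less RNA per cell cannot be told apart for any of these genes.

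The depth behind these values was estimated from the low FPKM, at between 8680000 and 8910000 reads a library. Reads implied for a gene follow from this depth and the length of its shortest transcript, and the 95% Clopper-Pearson intervals of the log2 FPKM ratio cover counting error only. For DNMT3B, with 4550 reads in the control and 8755 in clone 1, the log2 ratio was 0.95 (interval 0.89 to 1.00), and for clone 2 it was 0.70 (interval 0.65 to 0.75). These intervals do not overlap, so that the clones differed from each other in DNMT3B beyond counting error. For TET1 the ratio was 0.31 (interval 0.17 to 0.45) in clone 1 and 0.14 (interval 0.002 to 0.29) in clone 2. The clone 2 value is at the edge of what this depth resolves. For TET2 the ratio was -0.60 (interval -1.09 to -0.09) in clone 1 and -0.73 (interval -1.25 to -0.21) in clone 2, from 58 and 52 reads against 87 in the control. The direction of TET2 was thus outside counting error in both clones, with wide intervals. For UHRF1 the interval included 0 in clone 1 (-0.22 to 0.06) and not in clone 2 (-0.32 to -0.04).

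With 1 control library, a test must take the spread from elsewhere. In limma over 3 groups, with 1 residual degree of freedom from the clones, DNMT3B had a difference of 0.82 (SE 0.11) and a Benjamini-Hochberg adjusted p of 0.081. None of the 12697 genes had an adjusted p under 0.05 in this limma fit (0.00%), and 2332 had an unadjusted p under 0.05. The adjusted p from limma was 0.28 for DNMT3A, 0.43 for DNMT1, 0.49 for TET1, 0.55 for UHRF1 and 0.89 for TET3. With this design the difference of DNMT3B did not pass.

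Exposure to R-spondin2 was then set against the same control library, so that both comparisons share it. DNMT3B was lower by 0.45 on the log2(FPKM+1) scale in the R-spondin2 library, with 161 against 221 FPKM. No member was at least 1.5-fold apart in either direction, against 2.00% of all genes. The FPKM ratio of DNMT3B was 0.731, and its log2 interval ran from -0.52 to -0.39. This was lower than the differences of all but 3.1% of genes. DNMT3A, the other de novo enzyme, was at -0.32, with a log2 ratio of -0.33 (interval -0.51 to -0.15) from 470 against 606 reads. TET1 was at -0.23, with a log2 ratio of -0.26 (interval -0.42 to -0.11). DNMT3A and TET1 lay within the central 90% of all genes, whose 5th percentile was -0.36, and DNMT3B lay outside it.

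The genes of methylation maintenance differed least with R-spondin2. DNMT1 was at -0.02 and UHRF1 at -0.03, and the intervals of their log2 ratios ran from -0.10 to 0.06 and from -0.16 to 0.11. No difference was detectable at this depth for either. TET3 was at 0.07 with an interval of the log2 ratio from -0.09 to 0.26. TET2 was at 0.30, a ratio of 1.45 in FPKM, from 123 against 87 reads (log2 interval 0.13 to 0.95). Among the members with at least 10 reads it had the widest such interval. There is 1 library of each kind, so that none of these differences has a replicate check.

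**Figure D2:**
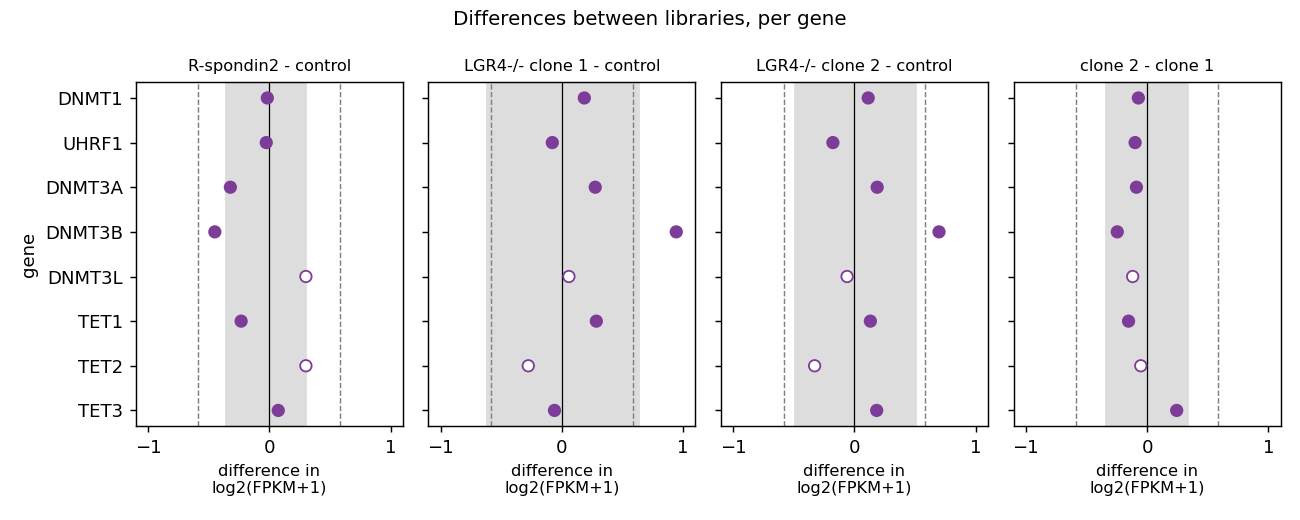
Difference in log2(FPKM+1) of each gene for 4 pairs of libraries, with the central 90% of 12697 genes in grey, 1.5-fold as dashed lines, and open points for the genes under a mean of 1 FPKM. DNMT3B is the 1 gene past 1.5-fold, in both clones against the control, and it lies left of the grey band with R-spondin2.

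The clones were compared with each other as a scale for the spread between libraries of 1 genotype. None of the 6 members was at least 1.5-fold apart, against 2.41% of all genes. DNMT3B was lower by 0.25 in clone 2, DNMT1 by 0.07, DNMT3A by 0.09, UHRF1 by 0.10 and TET1 by 0.15. TET3 was higher in clone 2 by 0.24. For DNMT3B the difference between the clones had a log2 interval of -0.29 to -0.20, and for DNMT3A the interval of -0.24 to 0.06 included 0. The difference of DNMT3B between either clone and the control was more than that between the clones. Its difference with R-spondin2, 0.45 in size, was also more than the 0.25 between the clones.

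The genotypes were next compared with R-spondin2 ignored, 2 LGR4-/- libraries against 2 wild type libraries. DNMT1, DNMT3A, DNMT3B and TET1 were higher in both clones than in both wild type libraries, 4 of 6 members against 34.4% of all genes. UHRF1 was lower in both clones, 1 of 6 against 27.6%. As most genes separate the genotypes in this way, separation says little about a single gene. In limma by genotype, which counts the R-spondin2 difference as spread, DNMT3B was higher in the clones by 1.04 (SE 0.15, adjusted p = 0.011). The wild type mean includes the R-spondin2 library, where DNMT3B was lower, so this difference is larger than the 0.82 against the control alone. Treatment was given in wild type only, and this fit pools it within that genotype. The comparison of the clones with the control alone keeps the treated library out of the difference. DNMT3B was the 1 of 6 members with an adjusted p under 0.05, against 14.7% of all genes. DNMT3A had a difference of 0.39 (SE 0.11) with a limma adjusted p of 0.065, and TET1 one of 0.32 (SE 0.12) with 0.12. For DNMT1 (0.16, adjusted p 0.14), UHRF1 (-0.12, adjusted p 0.32) and TET3 (0.02, adjusted p 0.92) limma gave no call. An exact permutation test of 2 against 2 libraries cannot reach 0.05 and was not run.

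DNMT1, DNMT3A, DNMT3B and TET1 also had the same order of libraries, clone 1 over clone 2 over control over R-spondin2. The same order was found in 17.1% of all genes, and it was looked for after the values had been seen. TET2 had the reverse order except for the clones, which stood at 0.70 and 0.64 FPKM and differed by less than counting error (log2 interval -0.71 to 0.43).

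The make-up of each family followed from these values. The summed FPKM of the DNMT genes was 314 in the control, 247 with R-spondin2, 535 in clone 1 and 462 in clone 2. DNMT3B supplied 70.2% of it in the control, 65.4% with R-spondin2, 79.5% in clone 1 and 77.6% in clone 2. The ratio of DNMT3B to DNMT3A, the paralogs with the same loop residues, was 5.76 in the control and 5.29 with R-spondin2, and 9.12 and 8.19 in the clones. The ratio of DNMT3B to DNMT1 was 4.02, 2.98, 6.80 and 6.03 in the same order. The balance of de novo to maintenance enzyme RNA was thus highest in clone 1 and lowest with R-spondin2.

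The maintenance pair shifted less. DNMT1 stood at 1.43 times UHRF1 in the control and 1.44 times with R-spondin2, and at 1.73 and 1.76 times in the clones. The summed FPKM of the TET genes was nearly level, with 15.8 in the control, 15.03 with R-spondin2, 17.4 in clone 1 and 17.2 in clone 2. TET1 supplied 59.7%, 52.4%, 67.1% and 60.6% of it. TET2 supplied 6.7% in the control, 10.2% with R-spondin2, 4.0% in clone 1 and 3.7% in clone 2. The ratio of TET1 to TET2 was accordingly 8.89 in the control, 5.11 with R-spondin2 and 16.7 and 16.3 in the clones. The ratio of summed DNMT to summed TET FPKM was 19.9, 16.4, 30.7 and 26.9. These sums and ratios are descriptions of single libraries and carry no test.

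**Figure D3:**
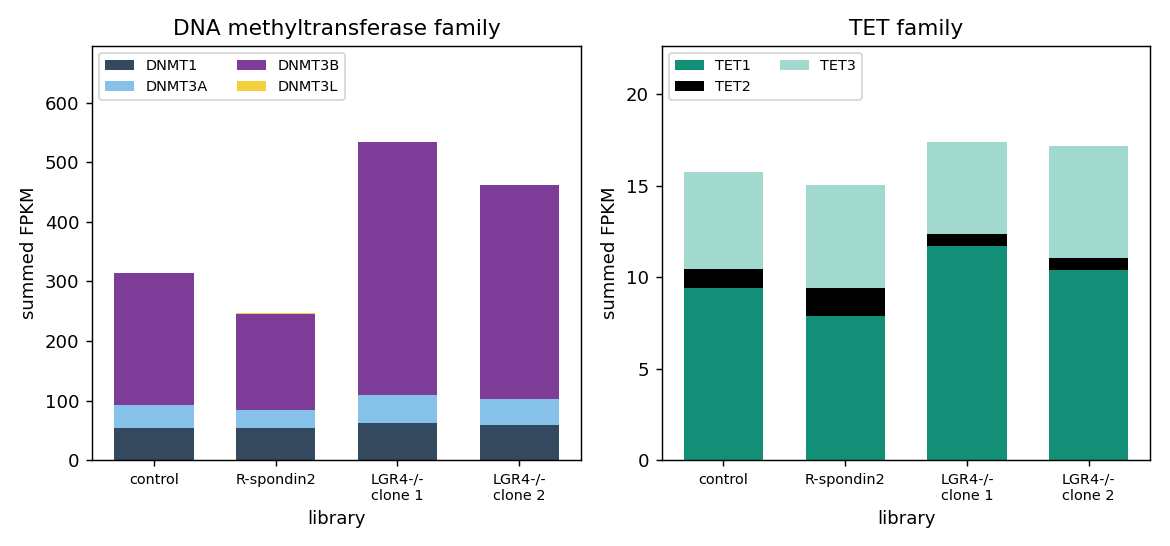
Summed FPKM of the DNMT genes (left) and the TET genes (right) in each library, with 1 color a gene and axes from 0. DNMT3B makes up most of the DNMT bar, which stands at 535 in clone 1 and 247 with R-spondin2, while the TET bars stay between 15.03 and 17.4.

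Lists of genes that work with these enzymes were described by counts and medians. They were written with earlier results of these libraries known. Of all genes kept, 2.61% were at least 1.5-fold higher in both clones and 3.09% lower, and 2.00% were that far apart with R-spondin2. The partners of methylation maintenance comprised 9 genes, all kept, among them PCNA, the replication clamp, and HELLS, a chromatin remodeler needed for methylation. Of these, 1 was at least 1.5-fold higher in both clones and none was lower, and none was that far apart with R-spondin2. The gene that was higher was CDCA7L, a relative of the HELLS activator CDCA7, with 28.5 FPKM in the control, 22.9 with R-spondin2, 46.8 in clone 1 and 43.6 in clone 2. Its order of libraries was that of DNMT3B. CDCA7 itself had the lowest mean difference of the list, -0.09. The median mean difference of the list was 0.16, beside 0.02 over all genes.

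The list of de novo methylation partners and opposing factors, such as TRIM28 and SETDB1, had 12 genes, of which 10 were kept. None was 1.5-fold apart in either comparison, and the median LGR4-/- difference was 0.04. PRMT6, an arginine methyltransferase whose histone mark opposes UHRF1 binding, was highest with 0.30, and NSD1, which lays the histone mark that DNMT3A reads, was lowest with -0.05. All 8 methyl-CpG readers were kept, with no gene past 1.5-fold in both clones or with R-spondin2 and a median of -0.11. MBD4, a glycosylase, was highest with 0.13 and ZBTB38 lowest with -0.42, at 5.12 FPKM in the control, 2.93 in clone 1 and 4.34 in clone 2, past 1.5-fold in clone 1 alone.

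Genes of active demethylation and TET cofactors numbered 18, of which 17 were listed and 15 kept. GADD45A, a stress gene that has been linked to demethylation and is best known for its part in growth arrest, was the 1 gene at least 1.5-fold lower in both clones. It had 47.2 FPKM in the control, 52.4 with R-spondin2, 18.7 in clone 1 and 26.3 in clone 2, a mean difference of -1.05. Its relative GADD45B stood at 32.9, 41.8, 14.6 and 25.0 FPKM, past 1.5-fold in clone 1 alone and between the clones. Both had an order of libraries opposite to that of DNMT3B.
NEIL1, a glycosylase of base excision repair, was the 1 gene at least 1.5-fold higher with R-spondin2, at 2.52 against 1.20 FPKM. It also had the highest LGR4-/- difference of the list, 0.46, past 1.5-fold in clone 1 alone. Clone 1 had 2.41 FPKM and clone 2 had 1.69 FPKM. Both differences rest on the same control value, which was close to the limit of 1 FPKM. TDG, the glycosylase that removes the products of TET oxidation, had a difference of -0.27, with 37.2 FPKM in the control, 37.1 with R-spondin2, 29.9 in clone 1 and 31.6 in clone 2, and it was named after its value was seen. The median of the list was 0.04.

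The methyl donor cycle had 14 genes, of which 11 were kept, none past 1.5-fold and with a median of 0.11. AHCY, which clears the product that inhibits methyltransferases, was highest with 0.30 and stood at 144 FPKM in the control, 127 with R-spondin2, 184 in clone 1 and 172 in clone 2. SHMT2 was lowest with -0.19. The 16 replication genes were all kept, none past 1.5-fold, with a median of 0.11, CCNE1 highest at 0.28 and TYMS lowest at -0.37. Of these, 12 had a mean above the control and 4 below it. Germline genes known to be held silent by DNA methylation, such as DAZL, numbered 12, of which 9 were listed and none reached a mean of 1 FPKM. Their summed level was 2.8 FPKM in the control, 2.2 with R-spondin2, 2.0 in clone 1 and 1.7 in clone 2. The sum does not describe each gene, as DAZL had 0.15 FPKM in the control and 0.33 FPKM in both clones. Values this low were not read as differences. The members themselves had a median LGR4-/- difference of 0.18 and a median R-spondin2 difference of -0.13.

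**Figure D4:**
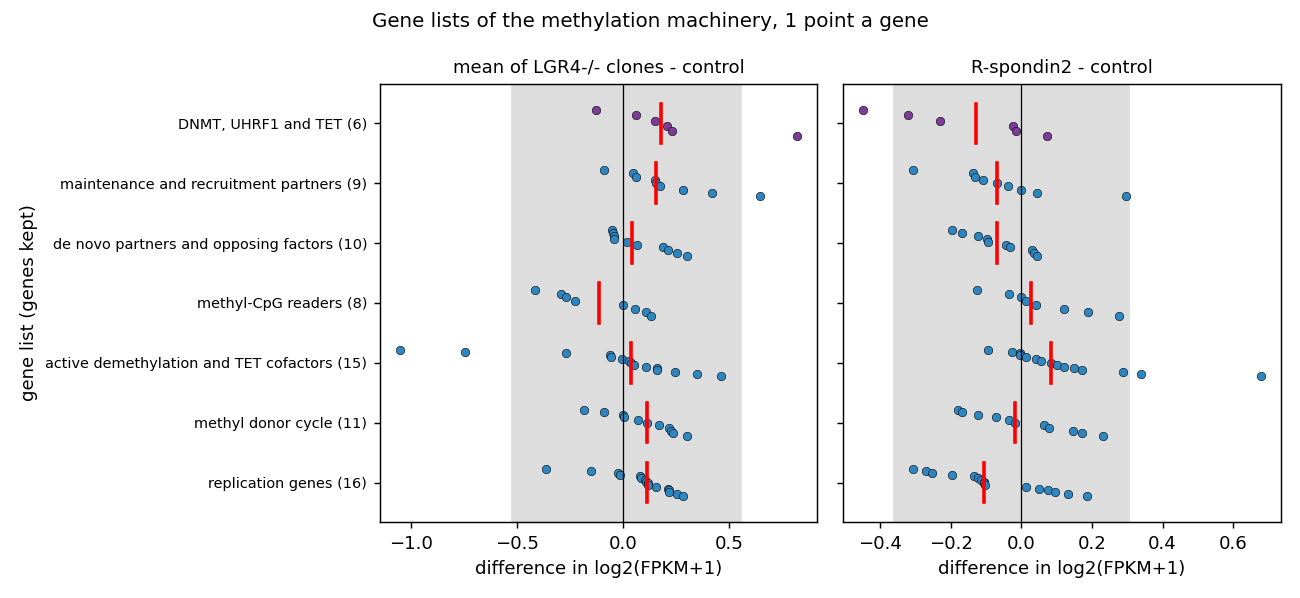
Difference in log2(FPKM+1) for each kept gene of 7 lists, with red bars at list medians and the central 90% of 12697 genes in grey. DNMT3B (0.82) is the 1 point of the top row outside the grey band on the left, and GADD45A (-1.05) is farthest left of all lists.

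Markers of cell types moved with these differences. Of the pluripotent cell markers, 9 of 10 were listed and kept. At least 1.5-fold higher in both clones were 2.61% of all genes and 5 of these markers. Their summed level was 1541 FPKM in the control, 1290 with R-spondin2, 2381 in clone 1 and 2248 in clone 2. POU5F1 alone had 597 FPKM in the control, 446 with R-spondin2, 1068 in clone 1 and 988 in clone 2. With R-spondin2, SOX2 (19.9 against 5.58 FPKM) and PRDM14 (7.59 against 3.59 FPKM) were at least 1.5-fold lower. Their differences spread widely, from 0.21 (L1TD1) to 1.51 (PRDM14) in the clones with a median of 0.78, and from -1.67 (SOX2) to 0.17 (TDGF1) with R-spondin2 with a median of -0.42. The 0.82 and -0.45 of DNMT3B lay inside these ranges. Markers of primitive streak and mesoderm lay the other way, with 7 of 10 at least 1.5-fold lower in both clones, against 3.09% of all genes. These markers summed to 1201 FPKM in the control, 1581 with R-spondin2, 426 in clone 1 and 662 in clone 2. The part of the cell make-up in the levels of DNMT3B, TET1 or TET2 was not tested.

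Markers of other cell types were at lower levels. Endoderm markers summed to 203 FPKM in the control, 251 with R-spondin2, 77.1 in clone 1 and 103 in clone 2, with 3 of 4 at least 1.5-fold lower in both clones. The other endoderm marker, FOXA2, was higher than the control in both, by 0.36 and 0.33. Stromal markers were kept for 6 of 8 and summed to between 216 and 297 FPKM, highest with R-spondin2, where COL3A1 (9.86 against 4.65 FPKM) and LUM (9.11 against 5.49 FPKM) were at least 1.5-fold higher. LUM, at 0.16 and 1.45 FPKM in the clones, was the 1 stromal marker at least 1.5-fold lower in both. Neuroectoderm markers summed to between 36.4 and 55.9 FPKM, nearly all of it from OTX2 (41.96 FPKM in the control), which was the 1 of 4 kept. PAX6, SOX1 and ZIC1 were at or under 0.54 FPKM in every library. Markers of blood and endothelium summed to between 4.4 and 4.8 FPKM, so that at day 2 the sorted cells carried pluripotent and mesoderm RNA and hardly any of blood.

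**Figure D5:**
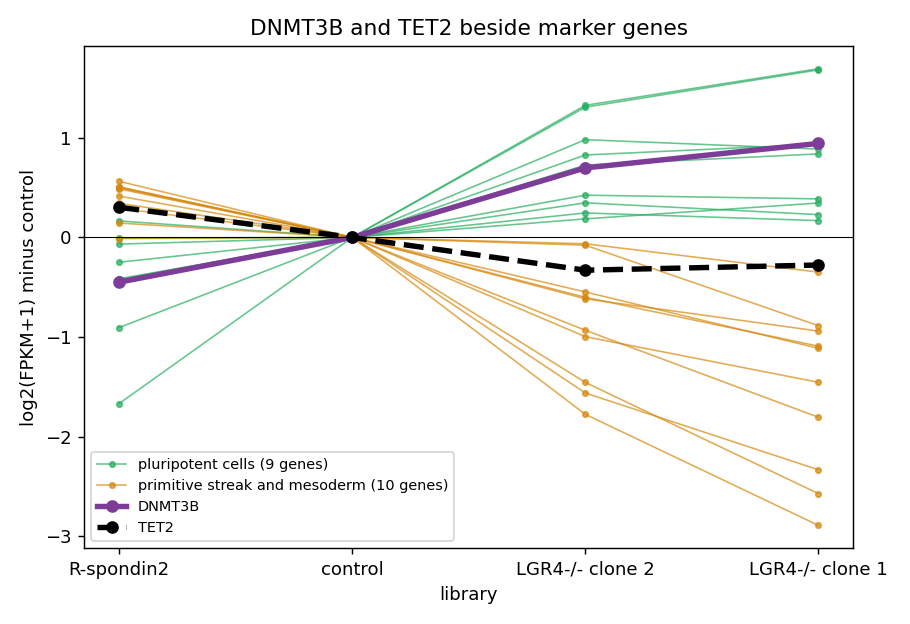
Difference in log2(FPKM+1) from the control for DNMT3B (purple), TET2 (black, dashed), 9 pluripotent cell markers and 10 primitive streak and mesoderm markers, with lines joining the points of a gene. DNMT3B runs among the pluripotent cell markers in all 4 libraries, and TET2 lies on the same side as most mesoderm markers.

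The genes whose profiles over the 4 libraries were nearest to those of the most variable kept members were found by the Euclidean distance of log2(FPKM+1), centered on each gene's mean. For DNMT3B, with a range of 1.39, these were IL23R (distance 0.057), COBL (0.061) and NPTX2 (0.064). IL23R, a cytokine receptor chain, had 2.27 FPKM in the control, 1.34 with R-spondin2, 5.48 in clone 1 and 4.25 in clone 2. For DNMT3A, with a range of 0.60, they were IGLON5 (0.009), CYB5RL (0.021) and LRAT (0.033). IGLON5 had 11.8, 9.31, 14.4 and 13.6 FPKM. With 4 libraries many genes have similar profiles, and the distances are descriptions.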

How the data were processed

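RNA-SEQ libraries (TruSeq) were made from 4 sorted samples of H1 cells, and the authors deposited FPKM to 2 decimals for 17894 genes in each, already scaled for transcript length and depth. The submitters' processing notes name BWA, Bowtie and RSEM and the build hg19, without roles or order. RSEM shares reads between transcripts that match them, so that values of overlapping genes are estimates. Samples were grouped by title and genotype label. Values were compared as log2(FPKM + 1), with genes kept at a mean of at least 1 FPKM, and 1.5-fold was used as a threshold of size, since there is 1 control library and no test of single libraries is possible. For LGR4-/- both clones had to pass in the same direction. The labels do not say whether the clones were cultured or sorted independently, so p-values from limma measure the spread between these libraries, which may be technical.

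Depth was estimated from FPKM above 0 and under 0.6 of transcripts under 1500 bases, taken from 8068 genes with 1 RefSeq transcript. Between 335 and 359 values a library met these limits. At the estimate, the share of these values within 0.2 of a whole read was 76.3% to 77.7%, and 42.8% to 45.4% when lengths were shuffled. As this share falls short of nearly all values, no p-value was taken from implied reads. The counting intervals rest on the same estimate and are approximate. Intervals used genes with at least 10 implied reads and the shortest transcript, and a longer transcript would give narrower ones.

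The members and lists were chosen with earlier results of these data known. The genes named were the 8 members, LGR4, genes of the lists past 1.5-fold, the highest and lowest LGR4-/- difference of each list, and the 3 nearest profiles of the 2 kept members with the widest range. PCNA, HELLS, TRIM28, SETDB1, GADD45B, TDG, DAZL and marker genes are named in addition. Alternatives were a pseudocount of 0.1, no filter, a filter at 5 FPKM, rescaling by median ratios, 2-fold, each clone left out and limma. The R-spondin2 library as the reference, the genotype count without each library and the count of 1 order of libraries were chosen after seeing the data. Loop sequences came from GENCODE release 29 (GRCh38), not the build of the deposited values. Scripts were tested on simulated data. Python 3.11.15 with numpy 2.4.6, pandas 2.3.3, scipy 1.17.1, matplotlib 3.10.9 and biopython 1.88, and R 4.3.3 with limma 3.58.1, were used.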

Additional observations from a re-analysis of the deposited data

How the results depend on the processing

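Of 28 counts of members under other settings, 25 stayed within 1.5 times of the reported count and 3 did not. Against the control, DNMT3B was the 1 member called in both clones. At a threshold of 2-fold the count was 0, and in limma over 3 groups it was 0. It was 1 with either clone left out (range 1 to 1), and 1 with the R-spondin2 library in place of the control. Neither setting could have removed DNMT3B. The call already required both clones, and DNMT3B was lower with R-spondin2 than in the control. The 5 members that separated the genotypes, against 62.0% of all genes, became 1, DNMT3B, in limma by genotype, against 14.7%. Without a filter the count was 6, where TET2 was added, against 53.1% of all genes. With any library left out it was between 5 and 6, against 78.0% to 83.6% of all genes. Leaving a library out can only keep or add separation, so these counts are no check of it. No member was called with R-spondin2 or between the clones under any of the 5 alternatives run for each. Of 64 values of single genes under other settings, 62 kept their sign. The mean LGR4-/- difference of DNMT3L was 0.058 and that of TET3 was -0.061 with clone 1 alone, where the mean of both clones had the other sign. With a pseudocount of 0.1 the difference of TET2 was -0.59 in place of -0.30. Rescaling moved the median of all genes by under 0.1. No paired analysis was possible because there was 1 control library and 1 R-spondin2 library. A single control library, 1 R-spondin2 library and under 10 reads for DNMT3L limit what can be said.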
